A study of Mus musculus with 39 samples.

Results

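The 10 genes described here encode receptors for extracellular nucleotides (P2ry6, P2rx4, P2rx7), enzymes that break nucleotides down outside the cell (Entpd1, Nt5e), the 4 adenosine receptors (Adora1, Adora2a, Adora2b, Adora3) and adenosine deaminase (Ada). They were taken by symbol, and all 10 were found among 46333 genes in the female table and among 54532 genes in the male table. RNA was measured by bulk mRNA sequencing in CD11b+ cells isolated with magnetic beads from the cerebrum, in 19 libraries from females at 10 months of age and 20 from males at 8 months. Each sex had 4 groups: wildtype (WT) mice kept in normoxia (NX, 21% O2), WT mice exposed to chronic intermittent hypoxia (CIH), 5XFAD mice in NX and 5XFAD mice exposed to CIH, with 5 libraries per group except 4 in female WT NX. Exposure began at 4 months of age in every CIH group and switched oxygen in 90 s intervals, with a low level of 6.5% for 8 h per day in the sample labels and of 6% for 12 h per day in the study's methods. The mice came from crosses of C57BL/6J females with 5XFAD males. 5XFAD mice carry human transgenes with familial Alzheimer's disease mutations, expressed in neurons from the Thy1 promoter, so the transgenes are not a change made to the microglia. CD11b is carried by all myeloid cells, and the selection is therefore not specific to microglia. In bulk RNA, a change in the share of cells of one type and a change in RNA per cell cannot be told apart.

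Libraries held 14731683 to 25906121 counts in females and 13457293 to 23095627 in males. The summed level of 8 microglial marker genes was 23783 to 32275 in females and 22086 to 34137 in males, in CPM (counts scaled to library size and TMM factor), far above the sum of any other cell type list, so microglial markers led in every library. The library labelled female 5XFAD NX replicate 4 stood with the WT libraries in several of the genes below, and female WT NX replicate 1 stood apart in Nt5e and Adora2a. Both were kept, and calls that changed when either was left out are stated.

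ATP and UDP released by stressed or dying cells act on P2 receptors of microglia. P2X receptors are channels opened by ATP, whereas P2Y receptors couple to G proteins, and P2ry6 answers to UDP and is known for its part in phagocytosis by microglia. Entpd1 (CD39) cuts ATP and ADP to AMP, Nt5e (CD73) cuts AMP to adenosine, adenosine acts on its 4 receptors, and Ada turns adenosine into inosine. Adora1 and Adora3 couple to inhibitory G proteins, Adora2a and Adora2b to stimulatory ones. The pathway is also known for its link to low oxygen, since Nt5e and Adora2b are textbook targets of hypoxia-inducible factors (HIF), which bind a short core motif in DNA.

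Because the exposure was to low oxygen, the promoters of the 10 genes were searched for the HIF core, written ACGTG or GCGTG, on both strands. The 2 words share their last 4 letters, and overlapping matches were counted. RefSeq promoter windows on GRCm38.p6, running from 250 bases before to 50 bases after a gene's start, were held for 8 of the 10 genes (11 windows). The core was present in 6 of these 11 windows, which belonged to 5 genes, and in 43.8% of all 32851 windows of the same length. A match is a description of the letters and no evidence of binding. Windows without a match were those of P2rx4, Adora3, both starts of P2rx7 and the second start of Entpd1. The sequences below are those of Adora1 and Ada, the 2 genes that met the DEG rule given below, and of the HIF targets Adora2b and Nt5e, whose level stayed near the limit of detection. They are written 5′ to 3′ on the strand of the gene, and capitals mark the motif on either strand.
Adora1, first start (chr1:134235408-134235707, minus strand): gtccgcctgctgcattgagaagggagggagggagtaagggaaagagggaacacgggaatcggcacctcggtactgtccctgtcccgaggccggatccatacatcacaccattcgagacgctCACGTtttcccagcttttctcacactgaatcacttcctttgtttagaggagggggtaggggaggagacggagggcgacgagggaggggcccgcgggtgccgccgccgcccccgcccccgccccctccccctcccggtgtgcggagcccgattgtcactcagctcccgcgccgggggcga
Adora1, second start (chr1:134234807-134235106, minus strand): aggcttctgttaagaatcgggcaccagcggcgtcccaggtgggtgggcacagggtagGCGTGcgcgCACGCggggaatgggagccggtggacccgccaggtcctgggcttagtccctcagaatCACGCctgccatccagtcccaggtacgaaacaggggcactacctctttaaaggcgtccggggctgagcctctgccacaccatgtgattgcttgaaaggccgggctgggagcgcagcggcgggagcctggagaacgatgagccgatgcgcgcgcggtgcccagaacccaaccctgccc
Ada (chr2:163750190-163750489, minus strand): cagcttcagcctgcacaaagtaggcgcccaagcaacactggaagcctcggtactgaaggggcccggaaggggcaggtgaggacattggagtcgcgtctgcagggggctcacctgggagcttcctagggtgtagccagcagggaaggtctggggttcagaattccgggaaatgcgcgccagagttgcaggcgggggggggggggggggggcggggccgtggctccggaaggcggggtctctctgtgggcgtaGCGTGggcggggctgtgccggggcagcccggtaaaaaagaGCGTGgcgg
Adora2b (chr11:62248734-62249033, plus strand): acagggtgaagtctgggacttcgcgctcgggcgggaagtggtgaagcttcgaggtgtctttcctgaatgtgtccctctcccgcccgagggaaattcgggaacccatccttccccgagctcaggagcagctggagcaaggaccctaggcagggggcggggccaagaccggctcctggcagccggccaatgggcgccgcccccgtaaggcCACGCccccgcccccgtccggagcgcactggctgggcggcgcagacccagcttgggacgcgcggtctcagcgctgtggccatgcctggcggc
Nt5e (chr9:88327359-88327658, plus strand): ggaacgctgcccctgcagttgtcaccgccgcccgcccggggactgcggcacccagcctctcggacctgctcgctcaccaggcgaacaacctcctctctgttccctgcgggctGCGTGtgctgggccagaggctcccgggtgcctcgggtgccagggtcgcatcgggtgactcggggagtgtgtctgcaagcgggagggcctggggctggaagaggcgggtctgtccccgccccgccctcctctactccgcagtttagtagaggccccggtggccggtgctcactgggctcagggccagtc
The second start of Adora1 held 3 matches, a number reached by 8.93% of all windows, and the Ada promoter held 2, a number reached by 20.6%.

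Levels of the 10 genes spanned more than 3 orders of magnitude. In female WT NX the order by FPKM, which is per gene length, was Entpd1 with a median of 209.8 (196 to 227), P2ry6 130.2 (124 to 138), P2rx7 114 (104 to 115), P2rx4 32.5 (28.3 to 34.2), Adora3 21.6 (20.2 to 24.1) and Ada 1.77 (1.66 to 2.02), with the range over 4 libraries in parentheses. None of these neighbours overlapped in that group. Adora1 (0.504), Adora2a (0.345), Adora2b (0.215) and Nt5e (0.0858) followed, and their ranges overlapped one after the other. In male WT NX, Entpd1 with a median FPKM of 128 (114 to 142) and P2ry6 127 (113 to 156) overlapped at the top, followed by P2rx7 46.4 (42.2 to 49.8), Adora3 35.5 (31.8 to 46.4), P2rx4 13.4 (12 to 15.3) and Ada 1.81 (1.24 to 2.75). Adora2a, Adora2b, Adora1 and Nt5e lay below 1 FPKM in every male WT NX library. Among the genes above 1 FPKM in WT or 5XFAD, Adora1 stood above Ada by median FPKM in all 4 groups of 5XFAD mice and below it in all 4 groups of WT mice, and in males P2rx4 stood above Adora3 by median in 5XFAD and below it in WT. The order of the genes below 1 FPKM also differed between groups. The female and male tables were made on different gene annotations, so levels were not compared between the sexes.

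**Figure D1:**
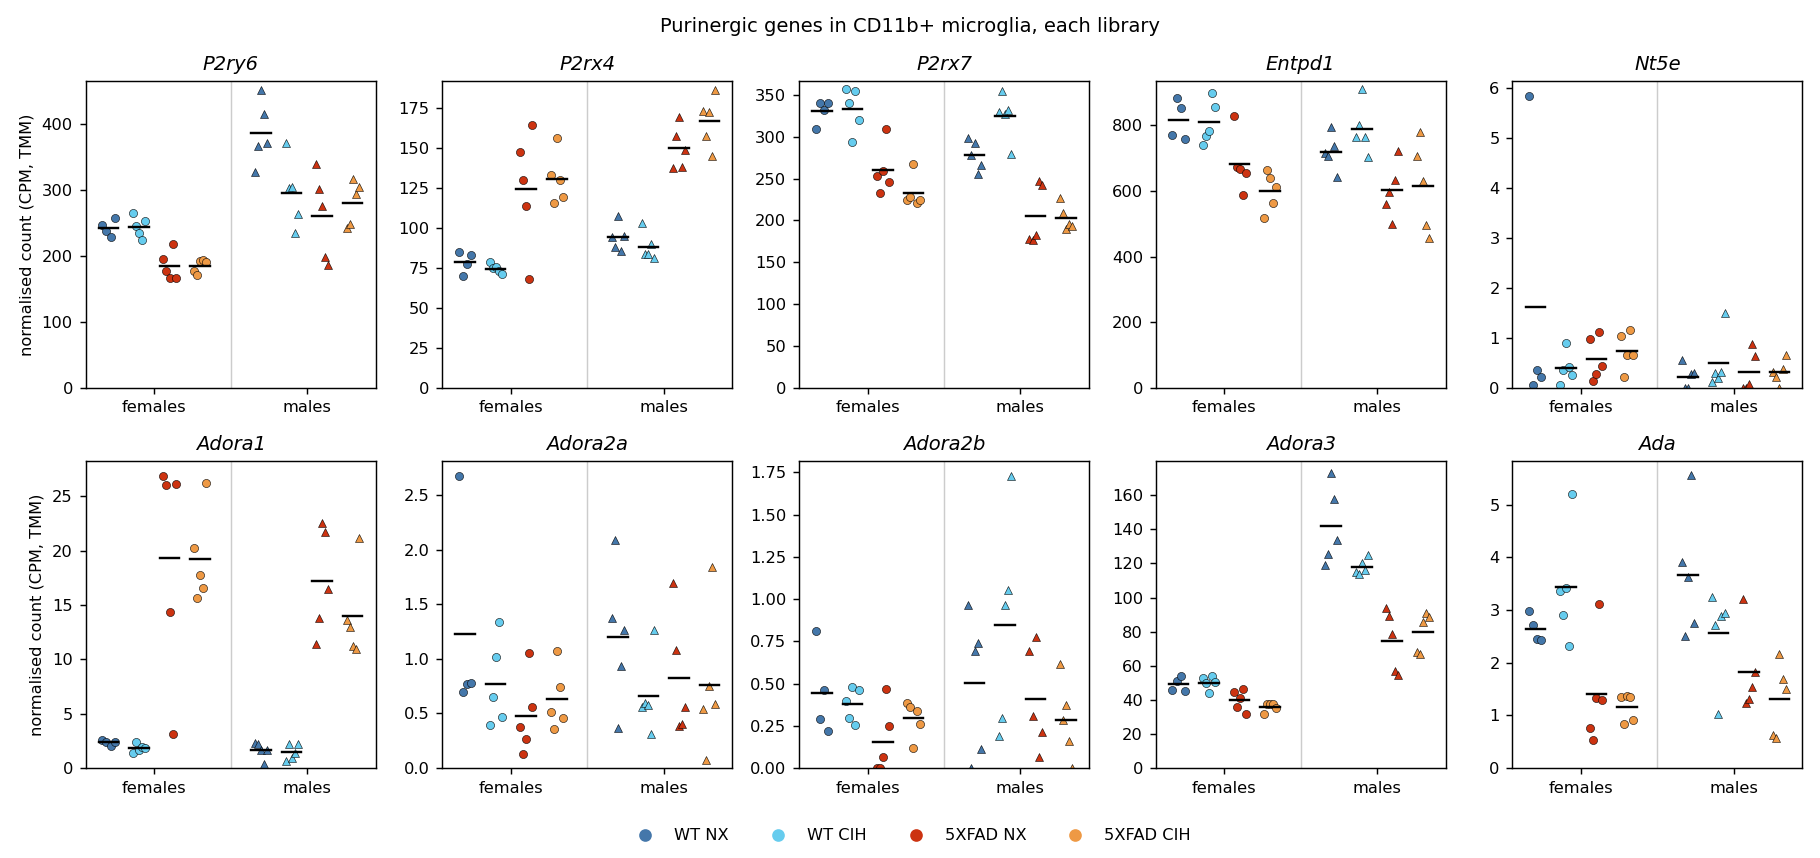
Normalised counts (CPM, scaled by TMM within each sex) of the 10 genes in each library, on linear axes from 0. Circles are female and triangles male libraries, coloured by group, and black bars are group means. Adora1 was at 0.403 to 2.54 CPM in all WT libraries and at 10.9 to 26.9 CPM in all 5XFAD libraries except 1 female at 3.11 CPM.

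The genotype comparisons asked how the genes differed between WT and 5XFAD microglia within one treatment. Adora1 rose in all 4 of them, P2rx4 rose in 3 and P2rx7 fell in all 4, at a false discovery rate (FDR) below 0.05 over all genes tested. In NX-exposed females 7 of the 10 genes passed the count filter, of which 1 rose and 2 fell, beside 7.26% of all 14513 genes rising and 6.61% falling. In CIH-exposed females 8 were tested, 2 rose and 5 fell, beside 26.2% and 25.7% of all genes. In males 8 were tested under each treatment. Under NX 2 rose and 3 fell, beside 10.4% and 7.37% of all genes, and under CIH 2 rose and 2 fell, beside 25.3% and 23.7%. With an absolute log2 fold change (log2FC) above 1 in addition, the study's rule for differentially expressed genes (DEGs), Adora1 was the 1 gene that rose in each comparison. The share of all genes that rose by this rule was 4.4% and 8.83% in females and 5.94% and 11.8% in males, under NX and CIH in that order. Ada was the 1 gene that fell by this rule, in CIH-exposed females, beside 4.12% of all genes.

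Scaled by library size alone, the median over all genes of the log2FC went from -0.02 to -0.17 in the NX and from -0.02 to -0.21 in the CIH comparison of females, and from +0.02 to -0.16 and from -0.06 to -0.43 in males. The share of calls that were higher in 5XFAD then moved from 50.5% to 29.3% in CIH-exposed females, from 58.6% to 33.1% in NX-exposed and from 51.6% to 24.5% in CIH-exposed males. None of the 10 genes that passed the FDR changed direction under either scaling.

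**Figure D2:**
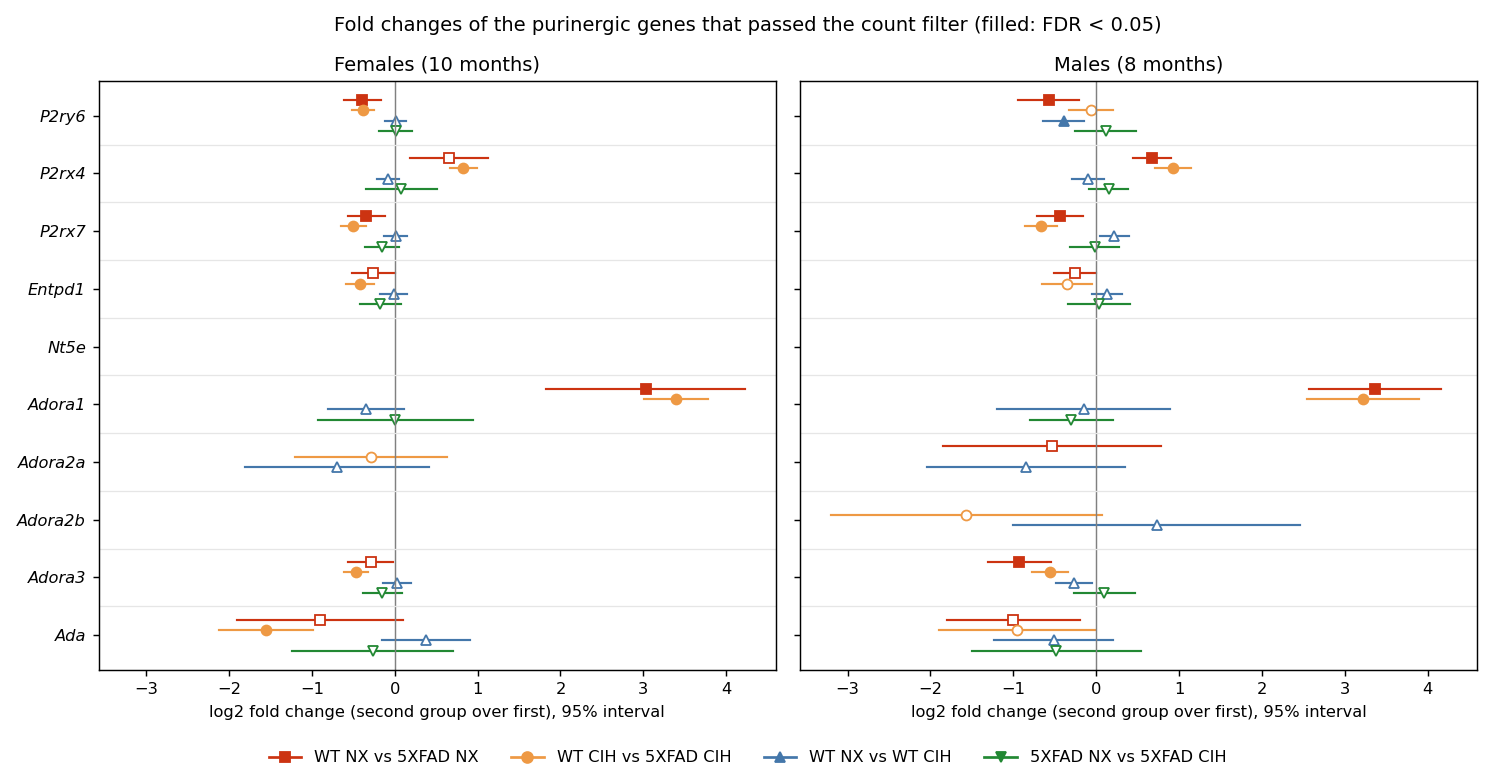
Log2 fold change of the second group over the first for each gene that passed the count filter, with its 95% interval from the edgeR fit, for the 2 genotype and the 2 treatment comparisons of each sex. Filled symbols have FDR < 0.05. The intervals of Adora1 lay above 1.8 in all 4 genotype comparisons, and of the treatment comparisons 1 symbol is filled, that of P2ry6 in WT males.

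Among the P2 receptors, P2rx4 and P2rx7 moved in opposite directions with genotype. P2rx4 encodes a channel opened by low levels of ATP that microglia are known to raise after injury. It was at 84.9, 70.1, 77 and 83 CPM in female WT NX and at 147, 129.7, 113, 67.9 and 164 CPM in female 5XFAD NX, in the order of replicate numbers. In CIH-exposed females it was at 78.4, 75.1, 75.2, 72.7 and 70.8 CPM in WT and at 133, 116, 156, 129.7 and 119 CPM in 5XFAD. All 5XFAD libraries except NX replicate 4 lay above all WT libraries of their treatment. P2rx4 rose by 1.77-fold in CIH-exposed females (log2FC +0.83 ± 0.08 (SE), FDR = 1.22e-06, n = 5 and 5). The NX difference was +0.66 and missed the threshold (FDR = 0.0627, n = 4 and 5), but it passed without 5XFAD NX replicate 4 (log2FC +0.81, FDR = 0.000406). In males, P2rx4 was at 94.4, 88, 107, 85.7 and 94.9 CPM in WT NX and at 137, 158, 169, 138 and 149 CPM in 5XFAD NX. It was at 103, 83.3, 83.8, 90.0 and 81 CPM in male WT CIH and at 173, 157, 172, 145 and 186 CPM in 5XFAD CIH, again without overlap. The rise was 1.6-fold under NX (log2FC +0.68 ± 0.11 (SE), FDR = 0.000694) and 1.9-fold under CIH (log2FC +0.93 ± 0.10 (SE), FDR = 3.77e-06, n = 5 and 5 each).

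P2rx7 encodes the channel that high ATP opens and that is known for inflammasome activation. It was at 309, 340.5, 332 and 339.7 CPM in female WT NX and at 253, 233, 259, 309.6 and 246 CPM in 5XFAD NX, where replicate 4, the highest, overlapped with the lowest WT library. It was at 357, 340.5, 294, 354 and 319.8 CPM in female WT CIH and at 224, 228, 268, 221 and 224 CPM in 5XFAD CIH, with no overlap. P2rx7 fell in females under NX (log2FC -0.34 ± 0.10 (SE), FDR = 0.0479) and under CIH (log2FC -0.50 ± 0.07 (SE), FDR = 6.16e-05). Leaving out 5XFAD NX replicate 4 gave a log2FC of -0.42 under NX, and leaving out any other single NX library lost the call (FDR up to 0.116). Male P2rx7 was at 298, 278, 293, 255 and 266 CPM in WT NX and at 178, 177, 183, 247 and 242 CPM in 5XFAD NX. Under CIH the male values were 329, 354, 327, 331 and 279.5 CPM in WT and 227, 209, 189, 196 and 193 CPM in 5XFAD, and neither pair of groups overlapped. P2rx7 fell by genotype in males under NX (log2FC -0.44 ± 0.13 (SE), FDR = 0.0314) and under CIH (log2FC -0.67 ± 0.09 (SE), FDR = 3.56e-05). The NX call in males was lost in 7 of the 10 fits that left out 1 library (FDR up to 0.0814).

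The 2 channel genes are neighbours on chromosome 5 of GRCm38, on the same strand: P2rx7 lies at chr5:122643911-122691432 and P2rx4 at chr5:122707544-122729738, with 16111 bases between them. The FPKM of P2rx4 as a percentage of that of P2rx7 in the same library, a measure chosen after the values were seen and given without a test, had a median of 28.5% (range 24.6 to 32.9%) in female WT NX and 26.4% (range 24.6 to 30.6%) in WT CIH. It was 66.6% (range 26.2 to 79.9%) in female 5XFAD NX and 69.7% (range 60.8 to 70.9%) in 5XFAD CIH. In males it was 28.6% (range 26.9 to 31.2%) in WT NX, 23.1% (range 20.0 to 26.6%) in WT CIH, 65.6% (range 47.5 to 78.5%) in 5XFAD NX and 64.9% (range 62.9 to 81.6%) in 5XFAD CIH. A percentage within a library does not depend on how libraries are scaled to each other. Only the lowest female 5XFAD NX library, replicate 4, fell within the WT range. Because the P2rx4 values come from different gene models in the 2 tables, the percentages of females and males are not comparable.

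**Figure D3:**
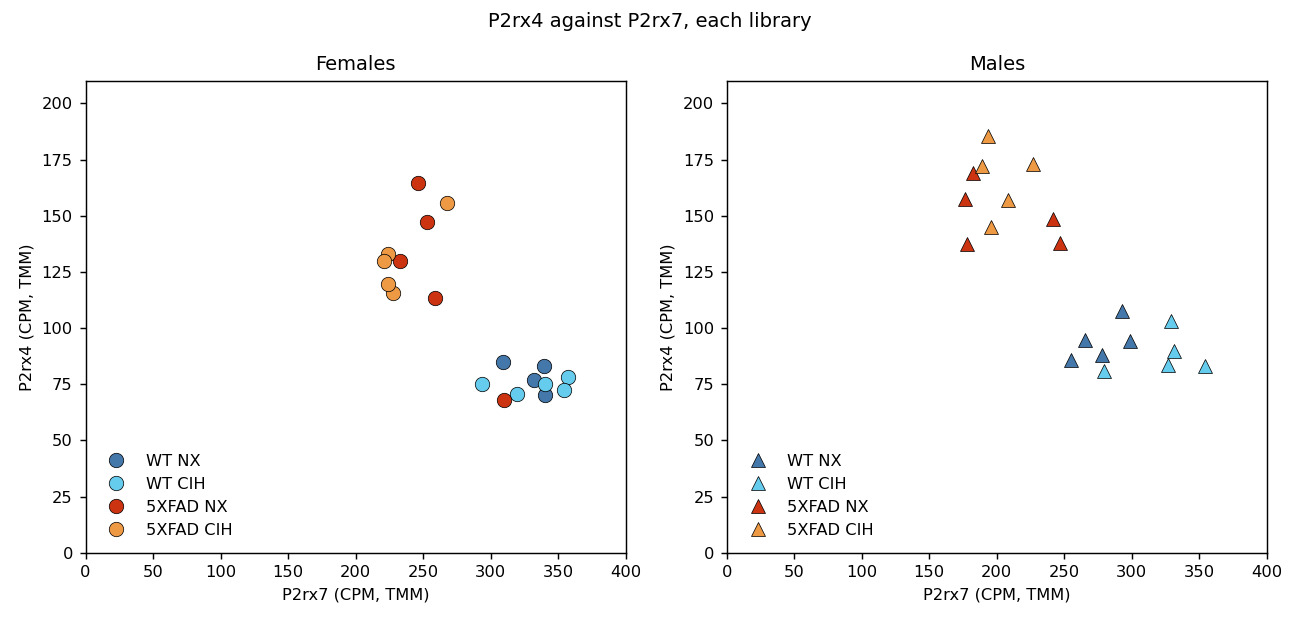
P2rx4 against P2rx7 in CPM, 1 symbol per library, females on the left and males on the right, with both axes from 0. WT libraries lay at 70.1 to 107 CPM of P2rx4 and 255 to 357 CPM of P2rx7, 5XFAD libraries to the upper left of them, except 1 female 5XFAD NX library at 67.9 and 310 CPM.

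P2ry6 encodes the UDP receptor. It was at 247, 237, 228 and 257 CPM in female WT NX and at 194, 177, 167, 218 and 166 CPM in 5XFAD NX, and at 265, 245, 235, 224 and 252 CPM in WT CIH and 177, 171, 192, 194 and 191 CPM in 5XFAD CIH. All female 5XFAD libraries lay below all WT libraries of their treatment, and P2ry6 fell under NX (log2FC -0.39 ± 0.10 (SE), FDR = 0.0353) and under CIH (log2FC -0.39 ± 0.06 (SE), FDR = 0.000155). The NX call was kept without 5XFAD NX replicate 4 (log2FC -0.47) and was lost when any other single library was left out (FDR up to 0.0976). In males it was at 328, 367, 451, 415 and 370.2 CPM in WT NX and 339, 301, 275, 198 and 186 CPM in 5XFAD NX. Under CIH it was at 370.4, 302, 304, 234 and 263 CPM in male WT and 241, 248, 316, 293 and 304 CPM in 5XFAD. P2ry6 fell by genotype in NX-exposed males (log2FC -0.57 ± 0.17 (SE), FDR = 0.0338), where 1 5XFAD library overlapped with the WT range, and 7 of the 10 fits without 1 library lost this call (FDR up to 0.0873). In CIH-exposed males the difference was -0.06 (95% interval -0.33 to +0.21, FDR = 0.709) and the groups overlapped. With library size alone this last difference was log2FC -0.43, FDR = 0.0046. Under that scaling the median over all genes was also -0.43, and 9005 of 14793 genes were called.

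Of the enzymes, Entpd1 (CD39) was the most abundant of the 10 genes by median FPKM in every group. It was at 772, 882, 851 and 758 CPM in female WT NX and 828, 672, 665, 587 and 656 CPM in 5XFAD NX, with replicate 1 of 5XFAD inside the WT range. In CIH-exposed females it was at 741, 767, 781, 899.6 and 855 CPM in WT and 518, 663, 641, 564 and 611 CPM in 5XFAD, without overlap. Entpd1 fell by genotype in CIH-exposed females (log2FC -0.42 ± 0.08 (SE), FDR = 0.000539). The other differences were below 0 and missed the threshold: -0.26 in NX-exposed females (FDR = 0.144), -0.25 in NX-exposed males (FDR = 0.171) and -0.35 in CIH-exposed males (FDR = 0.054). The male values were 643 to 794 CPM in WT NX, 705 to 912 in WT CIH, 498 to 722 in 5XFAD NX and 456 to 780.0 in 5XFAD CIH, with the widest spread in the last group. The CIH difference in males lay close to the threshold and passed it with library size, the likelihood ratio test, no filter, all 4 groups in one fit and DESeq2 (for DESeq2, log2FC -0.35, FDR = 0.0346).

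Nt5e (CD73), the enzyme that forms adenosine from AMP, was near the limit of detection. It had 159, 1, 7 and 4 counts in female WT NX, 1, 6, 15, 8 and 5 in WT CIH, 18, 2, 4, 19 and 7 in 5XFAD NX and 16, 4, 11, 17 and 10 in 5XFAD CIH. In males it had 11, 0, 0, 4 and 5 counts in WT NX, 2, 6, 3, 6 and 26 in WT CIH, 0, 0, 1, 13 and 9 in 5XFAD NX and 4, 3, 0, 7 and 10 in 5XFAD CIH. All libraries but female WT NX replicate 1 held at most 26 counts. Nt5e passed the count filter in no comparison of 2 groups and was therefore not tested there. A difference between groups was not detectable at this depth.

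Ada, which removes adenosine, was low in these cells and fell by genotype in CIH-exposed females. It was at 2.98, 2.72, 2.46 and 2.44 CPM in female WT NX and 0.756, 0.532, 1.33, 3.11 and 1.3 CPM in 5XFAD NX, where replicate 4 lay above every WT library and the other 4 lay below all of them. In CIH-exposed females it was at 3.36, 2.91, 3.42, 2.31 and 5.21 CPM in WT and 1.35, 0.826, 1.37, 1.35 and 0.919 CPM in 5XFAD, without overlap. Ada fell to 0.341 of its WT level in CIH-exposed females (log2FC -1.55 ± 0.26 (SE), FDR = 0.00027, n = 5 and 5). The NX difference was -0.90 (FDR = 0.184), and without 5XFAD NX replicate 4 it passed (log2FC -1.44, FDR = 0.00399). Male Ada was at 3.91, 2.51, 3.63, 5.57 and 2.75 CPM in WT NX and 3.2, 1.23, 1.32, 1.53 and 1.83 CPM in 5XFAD NX. Under CIH it was at 3.25, 2.71, 1.03, 2.89 and 2.94 CPM in male WT and 0.617, 0.566, 2.17, 1.68 and 1.49 CPM in 5XFAD. The male groups overlapped under both treatments, and the differences of -1.0 (FDR = 0.0852) and -0.96 (FDR = 0.0841) missed the threshold. Under NX it passed without 5XFAD NX replicate 1 (log2FC -1.30, FDR = 0.0288), and under CIH without WT CIH replicate 3 (log2FC -1.16, FDR = 0.0395) or 5XFAD CIH replicate 3 (log2FC -1.21, FDR = 0.0471). In the libraries of the 5XFAD groups these CPM values rest on 8 to 53 counts.

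Adora1 showed the greatest fold change of the 10 genes in each genotype comparison. It encodes the inhibitory adenosine receptor best known from neurons, where it dampens transmitter release. It was at 2.54, 2.43, 2.05 and 2.38 CPM in female WT NX and at 26.9, 26, 14.4, 3.11 and 26.1 CPM in 5XFAD NX. In CIH-exposed females it was at 1.42, 2.38, 1.68, 1.9 and 1.86 CPM in WT and at 20.2, 15.6, 17.8, 16.5 and 26.3 CPM in 5XFAD. No 5XFAD library overlapped with WT, although NX replicate 4, at 53 counts against 217 to 498 in the other 4, was close to it. The rise was 8.17-fold in females under NX (log2FC +3.03 ± 0.54 (SE), FDR = 0.0175, n = 4 and 5) and 10.5-fold under CIH (log2FC +3.39 ± 0.18 (SE), FDR = 7.72e-09, n = 5 and 5). The NX call was lost without WT NX replicate 3, WT NX replicate 4 or 5XFAD NX replicate 5 (FDR up to 0.0647, log2FC at least 2.88) and was log2FC +3.30, FDR = 5.26e-06 without 5XFAD NX replicate 4. In males Adora1 was at 2.34, 2.21, 1.63, 0.403 and 1.66 CPM in WT NX and at 11.4, 13.8, 22.5, 21.7 and 16.5 CPM in 5XFAD NX. Under CIH the male values were 0.626, 2.22, 0.962, 1.37 and 2.25 CPM in WT and 13.7, 13, 11.2, 10.9 and 21.1 CPM in 5XFAD. The male groups lay far apart, with no overlap. Adora1 rose 10.3-fold in males under NX (log2FC +3.37 ± 0.37 (SE), FDR = 4.03e-05) and 9.34-fold under CIH (log2FC +3.22 ± 0.32 (SE), FDR = 1.57e-06), and all 20 fits without 1 library kept these 2 calls.

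Markers of other cells moved with genotype as well, and their values stand here beside Adora1. The summed level of 5 astrocyte markers was 16.9 to 48 CPM in female WT NX, 5.52 to 30.6 in WT CIH, 18.6 to 242 in 5XFAD NX and 117 to 511 in 5XFAD CIH. The lowest female 5XFAD NX sum was that of replicate 4, and the next lowest was 126 CPM. In males it was 5.3 to 29.8 in WT NX, 10.1 to 62.4 in WT CIH, 253 to 874 in 5XFAD NX and 119 to 514 in 5XFAD CIH. Gfap, an astrocyte filament gene, was at 0.388 to 1.5 CPM in female WT NX, 1.82 to 189.7 in 5XFAD NX and 95.4 to 404 in 5XFAD CIH. Its medians in female WT NX and 5XFAD NX were 0.502 and 161 CPM. Those of Slc1a2 were 20.8 and 38, of Aldh1l1 2.8 and 4.31, of Aqp4 1.78 and 2.53 and of Gja1 3.64 and 1.06. In NX-exposed males they were 0.537 and 235 CPM for Gfap and 6.11 and 55.9 for Slc1a2. They were 3.04 and 3.66 for Aldh1l1, 1.43 and 3.73 for Aqp4 and 2.59 and 2.63 for Gja1. The median was higher in 5XFAD than in WT for 4 of the 5 genes in females under each treatment, for 5 of 5 in NX-exposed and for 3 of 5 in CIH-exposed males, and no marker of the list was at 0 in every library of a group. The exceptions were Gja1 in females and Gja1 and Aqp4 in CIH-exposed males. Male Gfap was at 0.125 to 1.73 CPM in WT CIH and 101 to 423 in 5XFAD CIH. The sum of 6 neuron markers was 1.33 to 13.1 CPM in females and 2.70 to 15.5 CPM in males. In all 4 genotype comparisons the median sum of the endothelial, oligodendrocyte and T and NK cell lists was higher in 5XFAD, and that of the border macrophage, B cell, monocyte, erythroid and neuron lists was lower. That of the neutrophil list was lower in 3 and higher in CIH-exposed males. The sum of 8 microglial markers, P2ry12 among them, was lower in 5XFAD in all 4 comparisons without overlap: 28528 to 31459.7 CPM against 24582 to 27088 in NX-exposed and 27963 to 32275 against 23783 to 25604 in CIH-exposed females, and 30734 to 34137 against 22086 to 26913 in NX-exposed and 26552 to 30736 against 23611 to 25059 in CIH-exposed males. The sum of 5 endothelial markers was 45.5 to 119 CPM in female WT CIH and 150.1 to 222 in 5XFAD CIH, and that of 5 oligodendrocyte markers 119.6 to 229.6 CPM in male WT NX and 217 to 496 in 5XFAD NX. The sum of 6 border macrophage markers was 136 to 289 CPM in female WT CIH and 63.3 to 121 in 5XFAD CIH, and that of 7 T and NK cell markers 1.42 to 2.51 CPM in male WT CIH and 7.89 to 14.1 in 5XFAD CIH. Between genotypes, the endothelial sum separated only in CIH-exposed females and the T and NK cell sum only in CIH-exposed males. The oligodendrocyte sum overlapped in all 4 comparisons, and the border macrophage sum only in CIH-exposed males. The part of these marker differences in the genotype differences of the 10 genes was not tested.

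Adora1 lies at chr1:134199223-134235431 of GRCm38 on the minus strand and overlaps Mybph on the plus strand, where 1162 of its 5785 exonic bases lie within exons of that gene. The sources do not state that reads were counted by strand, so reads of the 2 genes cannot be told apart there. Mybph itself stayed at 1.39 to 3.58 CPM in females and 0.519 to 3.16 CPM in males and passed the FDR in none of the 4 genotype comparisons.

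By likeness across all libraries of a sex, genes near to Adora1 were Chst2 (Pearson r = 0.993) and Sulf2 (r = 0.991) over 19 female libraries, and Gng12 (r = 0.969), Gas2l3 (r = 0.967) and Pdgfc (r = 0.966) over 20 male libraries. For Ada they were Gm36266 (r = 0.940), Plekhg5 (r = 0.937) and Als2cl (r = 0.934) in females and P2rx1 (r = 0.861), Taf5l (r = 0.834) and 1700028E10Rik (r = 0.832) in males. These values describe log2 CPM over libraries that share the 4 groups, so a common difference between genotypes is enough to raise them.

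Adora3, an inhibitory adenosine receptor that is well expressed in rodent microglia, fell in 3 of the 4 genotype comparisons. It was at 46, 51.2, 53.8 and 45.4 CPM in female WT NX and 44.8, 35.8, 41.3, 46.5 and 31.6 CPM in 5XFAD NX, with overlap. In CIH-exposed females it was at 52.7, 49.6, 44, 54 and 50.2 CPM in WT and 31.9, 37.5, 37.5, 37.3 and 35 CPM in 5XFAD, without overlap. The difference in females missed the threshold under NX (log2FC -0.29 ± 0.12 (SE), FDR = 0.126) and passed it under CIH (log2FC -0.47 ± 0.07 (SE), FDR = 7.47e-05). Without 5XFAD NX replicate 4 the NX difference passed too (log2FC -0.36, FDR = 0.0242). In males it was at 119, 125, 173, 158 and 134 CPM in WT NX and 94, 89, 78.8, 56.6 and 54.3 CPM in 5XFAD NX. Under CIH the male values were 115, 114, 120.3, 116 and 125 CPM in WT and 67.9, 66.7, 85.4, 90.8 and 88.4 CPM in 5XFAD. Neither pair of male groups overlapped, and Adora3 fell under NX (log2FC -0.93 ± 0.17 (SE), FDR = 0.00259) and under CIH (log2FC -0.55 ± 0.10 (SE), FDR = 0.000466). Adora3 shares 779 of its 3729 exonic bases with Tmigd3 on the same strand (chr3:105870858-105908926), and the split of reads between them is uncertain. Tmigd3 was at 1.09 to 8.19 CPM over all libraries and also fell under CIH in females (log2FC -0.95) and in males (-1.06). Under NX its difference was -0.61 in females (FDR = 0.145) and +0.17 in males (FDR = 0.849), and in WT males it rose with CIH (log2FC +0.95 ± 0.33 (SE), FDR = 0.0416).

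Adora2a and Adora2b, the stimulatory receptors, were barely detected. Adora2a was at 2.68, 0.695, 0.768 and 0.776 CPM in female WT NX, 0.398 to 1.34 in WT CIH, 0.133 to 1.06 in 5XFAD NX and 0.362 to 1.07 in 5XFAD CIH. In males it was at 0.367 to 2.09 in WT NX, 0.316 to 1.27 in WT CIH, 0.387 to 1.7 in 5XFAD NX and 0.0708 to 1.84 in 5XFAD CIH. Adora2b was at 0.222 to 0.808 CPM in female WT NX, 0.257 to 0.48 in WT CIH, 0 to 0.47 in 5XFAD NX and 0.119 to 0.385 in 5XFAD CIH, and at 0 to 0.965, 0.188 to 1.73, 0.0666 to 0.774 and 0 to 0.617 CPM in the same male groups. Every pair of groups overlapped for both genes. Where Adora2a passed the filter, its genotype differences were -0.29 in CIH-exposed females (95% interval -1.21 to +0.63) and -0.53 in NX-exposed males (95% interval -1.85 to +0.78), and that of Adora2b was -1.57 in CIH-exposed males (95% interval -3.20 to +0.07). All 3 intervals include 0, and no difference was detectable at this depth.

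As a share of the summed FPKM of the 4 adenosine receptors in a library, a description chosen after the values were seen, Adora3 made up a median of 95.6% (range 90.3 to 95.9%) in female WT NX and 95.8% (range 94.8 to 97.1%) in WT CIH. It made up 77.4% (range 70.6 to 93.7%) in female 5XFAD NX and 79.6% (range 72.7 to 82.1%) in 5XFAD CIH. Adora1 made up 2.25% (range 1.72 to 2.36%) in female WT NX, 1.68% (range 1.23 to 2.16%) in WT CIH, 21.9% (range 2.95 to 27.5%) in 5XFAD NX and 17.8% (range 16.1 to 25.7%) in 5XFAD CIH. The share of Adora1 was thus higher in each female 5XFAD library than in any WT library, with the smallest gap for NX replicate 4. In males Adora1 made up 0.784% (range 0.162 to 1.21%) in WT NX, 0.739% (range 0.346 to 1.23%) in WT CIH, 15.2% (range 7 to 19.6%) in 5XFAD NX and 11% (range 7.02 to 13.3%) in 5XFAD CIH. Adora3 remained the main adenosine receptor transcript in every library of both sexes.

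**Figure D4:**
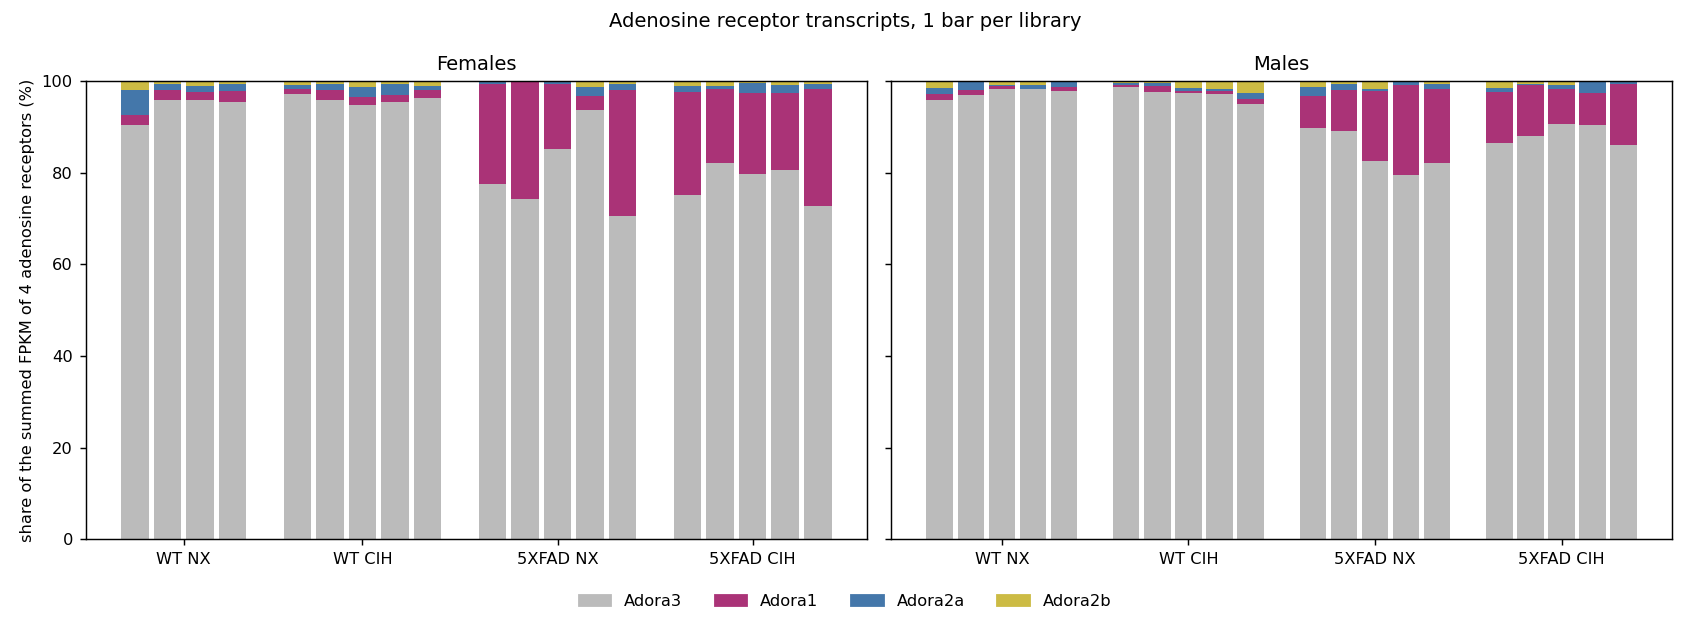
Share (in %) of each adenosine receptor gene in the summed FPKM of the 4 genes, 1 stacked bar per library, grouped by genotype and treatment. Adora3 made up at least 70.6% of every bar, and the Adora1 share was 0.162 to 2.36% in WT and 2.95 to 27.5% in 5XFAD libraries.

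The treatment comparisons asked what CIH changed within a genotype. In females none of the genes passed the FDR: 0 of 8 in WT and 0 of 7 in 5XFAD (edgeR), with 0 at an unadjusted p below 0.05 in both, and 0 with DESeq2 or the likelihood ratio test. Of all genes, 0% passed in WT and 0% in 5XFAD females. The intervals of the abundant genes were narrow in WT females: the CIH effect was +0.01 on P2ry6 (95% interval -0.12 to +0.14), +0.01 on P2rx7 (-0.13 to +0.15), -0.08 on P2rx4 (-0.22 to +0.05) and -0.01 on Entpd1 (-0.18 to +0.15). For Adora1 they were wider, -0.81 to +0.12 in WT and -0.93 to +0.94 in 5XFAD females. Leaving out 5XFAD NX replicate 4 also left 0 of the genes past the threshold in 5XFAD females.

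In WT males 9 genes were tested and 1 fell with CIH, while 28.6% of all 14983 genes passed (13.6% of all genes rose and 15% fell). This gene was P2ry6 (log2FC -0.39 ± 0.12 (SE), FDR = 0.0212, n = 5 and 5), from 386 ± 47.5 to 295 ± 51.4 CPM (mean ± SD), with overlapping libraries. Between the same groups, WT NX and WT CIH, the sum of 4 B cell markers was 28 to 40.0 and 17.5 to 24.2 CPM, that of 6 neutrophil markers 231 to 1205 and 107 to 314 CPM, and that of 4 monocyte markers 41 to 103 and 28.1 to 49.5 CPM. The neutrophil and monocyte sums overlapped, and the B cell sum did not. The border macrophage sum was 218 to 303 and 137 to 302 CPM, with overlap. The T and NK cell sum was 1.87 to 3.76 and 1.42 to 2.51 CPM, also with overlap. The microglial sum was 30734 to 34137 and 26552 to 30736 CPM, the neuron sum 11 to 13.3 and 7 to 11.6 CPM and the astrocyte sum 5.3 to 29.8 and 10.1 to 62.4 CPM, with overlap in each. The endothelial sum was 48.2 to 173 and 58.5 to 112 CPM, the oligodendrocyte sum 119.6 to 229.6 and 123 to 199 CPM and the erythroid sum 62 to 224 and 46.5 to 114 CPM, again with overlap. Their part in the P2ry6 result was not tested. The call was lost without WT NX replicate 3, WT CIH replicate 4 or WT CIH replicate 5 (FDR up to 0.0615) and with all 4 groups in one fit (log2FC -0.39, FDR = 0.104). P2rx7 was +0.22 (FDR = 0.0546) and Adora3 -0.27 (FDR = 0.0613), both just short of the threshold. P2rx7 passed it with DESeq2 (log2FC +0.24, FDR = 0.0107). Scaled by library size alone, the share of calls that were higher moved from 47.6% to 64.5% in this comparison, and 3 of the 9 genes passed, P2ry6 lower and P2rx7 and Entpd1 higher, beside 4369 of all 14983 genes tested, a share near that of the 9. In 5XFAD males 0 of 7 genes passed with edgeR, with DESeq2 and with the likelihood ratio test, and 0 had an unadjusted p below 0.05, beside 0% of all genes at the FDR. Adora1 was -0.30 there (95% interval -0.80 to +0.21).

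Whether the genotype difference itself changed with CIH was tested as an interaction over the 4 groups of a sex. Of 9 genes tested in each sex 0 passed, with edgeR, DESeq2 and the likelihood ratio test alike, beside 0% of all genes in females and 0% in males with edgeR. DESeq2 called 0 genes in females and 1017 of the 15813 that passed the filter in males. At an unadjusted p below 0.05 the number was 0 in females and 1 in males, P2ry6 (log2 difference +0.50, 95% interval +0.05 to +0.96, FDR = 0.171). The genotype effect on male P2ry6 under NX and its absence from the calls under CIH are therefore not shown to differ. For Adora1 the interaction was +0.34 in females (95% interval -0.82 to +1.50) and -0.15 in males (-1.17 to +0.88).

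Of the HIF targets in the same cells, 8 of 10 listed genes were tested. With CIH, 0 of 8 passed in WT and in 5XFAD females and in 5XFAD males (edgeR, 4, 0 and 0 at an unadjusted p below 0.05). The 4 in WT females were all lower with CIH: Vegfa (-1.55), Egln3 (-1.19), Pgk1 (-0.63) and Ldha (-0.48), each with an FDR of 0.96 and with overlapping libraries. The spread was wide in WT NX, where Vegfa was at 16.3 ± 15.1 CPM (SD, n = 4) against 5.61 ± 1.17 CPM in WT CIH (n = 5), and Egln3 at 4.41 ± 4.35 against 1.96 ± 0.286 CPM. The median log2FC of the 8 genes there was -0.43, with 1 of 8 above 0. In WT males 1 of 8 rose, Vegfa (log2FC +0.74), and 1 fell, Ldha (-0.35), beside 13.6% and 15% of all genes. At an unadjusted p below 0.05 (edgeR) there were 4, Slc2a1 (-0.40) and Pgk1 (-0.23) among them. The median log2FC of the 8 genes in WT males was -0.24, with 3 of 8 above 0. By genotype 1 of 8 rose in NX-exposed females, 8 in CIH-exposed females and 7 in males under each treatment, beside 7.26%, 26.2%, 10.4% and 25.3% of all genes. The spread was wide in female 5XFAD NX, where Pgk1 was at 207 ± 97.0 CPM (SD, n = 5) against 220 ± 42.3 in 5XFAD CIH. Egln3 was at 74.1 ± 44.0 against 81.1 ± 12.4 CPM in the same groups. Among the genes that rose by genotype was Egln3, an oxygen sensor that HIF induces, with a log2FC of +4.02 to +5.70. The median log2FC of the HIF targets by genotype was +0.89 in NX-exposed and +1.46 in CIH-exposed females and +1.27 in NX-exposed and +1.35 in CIH-exposed males, beside -0.02, -0.02, +0.02 and -0.06 for all genes.

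Among the other genes of purine signalling, P2ry12 and P2ry13, the ADP receptors that mark resting microglia, fell by genotype in every comparison. The log2FC of P2ry12 was -0.85 under NX and -1.07 under CIH in females, and -1.22 and -1.03 in males, with an FDR of 0.0305 in the first and below it in the others. That of P2ry13 was -0.82, -0.85, -0.98 and -0.77 in the same order. P2rx1, a fast ATP-gated channel, fell too, with a log2FC of -1.61, -1.92, -1.88 and -1.76. In WT males P2ry13 (log2FC -0.40 ± 0.10 (SE), FDR = 0.00603) and P2rx1 (log2FC -0.78 ± 0.15 (SE), FDR = 0.00192) also fell with CIH, while P2ry12 was -0.16 (FDR = 0.198). Enpp1, which cuts ATP to AMP and pyrophosphate at the cell surface, rose by genotype with a log2FC of +1.60, +1.64, +1.37 and +1.30. It was at 12.6, 11.6, 14.4, 14 and 15.5 CPM in female WT CIH and 47.4, 37.1, 41, 37.8 and 47.4 CPM in 5XFAD CIH.

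Over the whole list of 46 other purine genes, of which 45 were in the tables, 1 rose and 7 fell of 31 tested in NX-exposed females, 10 rose and 15 fell of 32 in CIH-exposed females, 3 rose and 8 fell of 30 in NX-exposed males and 8 rose and 10 fell of 29 in CIH-exposed males. Of all genes 7.26%, 26.2%, 10.4% and 25.3% rose and 6.61%, 25.7%, 7.37% and 23.7% fell in this order, so that the shares of the list that rose under CIH were near those of all genes. The median log2FC of the list was -0.22, -0.36, -0.04 and -0.10 in this order, beside -0.02, -0.02, +0.02 and -0.06 for all genes. Of the 13 other P2Y and P2X receptors, 6 or 7 were tested in each genotype comparison and 4 fell in each, while 0, 2, 0 and 1 rose. Of the genes of extracellular nucleotide hydrolysis, 5 or 6 were tested, and 1, 4, 3 and 3 rose while 0, 1, 0 and 1 fell. The median log2FC of the hydrolysis genes was +0.42, +0.68, +0.59 and +0.39. Of the ATP release genes 4 or 5 were tested, and 0, 1, 0 and 1 rose while 0, 2, 0 and 1 fell. Of the genes of adenosine transport and purine salvage, 3 of 14 fell and 0 rose in NX-exposed females, 8 of 14 fell and 3 rose in CIH-exposed females, 4 of 14 fell and 0 rose in NX-exposed males, and 4 of 13 fell and 3 rose in CIH-exposed males. Pnp, which acts on inosine in the step after Ada, fell by genotype in all 4 comparisons (log2FC -0.82, -1.06, -1.24 and -0.37). Its near-identical copy Pnp2 fell in CIH-exposed females (-1.30) and NX-exposed males (-1.58) and was at -0.89 in NX-exposed females (FDR = 0.0918) and -0.83 in CIH-exposed males (FDR = 0.0667). The 2 genes may share reads, so their split is uncertain. With CIH, 0 of 29 listed genes passed in WT females, 0 of 30 in 5XFAD females and 0 of 29 in 5XFAD males (edgeR, 3, 2 and 0 at an unadjusted p below 0.05), and in WT males 1 of 31 rose and 5 fell, beside 13.6% and 15% of all genes.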

How the data were processed

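CD11b+ cells were isolated from the cerebrum, and their mRNA was sequenced by a commercial provider (NovaSeq, paired-end). Per the labels, the authors' processing used HISAT2, whose version is not given in the sources used here, on GRCm38/mm10, and neither the counting tool nor its strand setting is given. The authors deposited whole-number counts per gene, without normalization, and FPKM values. Deposited FPKM equalled count per length and library total in females, and in males the same rescaled by a factor per library. FPKM served here only for levels between genes and for shares within a library.

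Differential expression was computed in R 4.3.3 with edgeR 4.0.16 (TMM, quasi-likelihood F test) for each pair of groups of a sex, keeping genes that exceeded 1 CPM in 3 or more of the samples compared, with Benjamini-Hochberg adjustment over all genes tested. A gene passed at FDR below 0.05, and a DEG also had an absolute log2FC above 1, as in the study's methods. The interaction was fitted over the 4 groups of a sex. SE and 95% intervals come from the fit, SD from libraries. Displayed CPM are TMM-scaled within a sex. The methods name 5 samples per group and one female NX outlier. Female WT NX has 4 libraries here, and the labels do not say whether the outlier is among the 39 libraries, all of which were used. Precision is limited by 4 or 5 libraries per group and, for genes at a few counts, by counting error. The methods call the samples independent, and no source ties replicate numbers to shared litters or days. Alternatives were library size scaling, DESeq2 1.42.0, the likelihood ratio test, no filter, a replicate block, 1 fit of all groups, the DEG rule and leaving out each library. Scripts were tested on simulated data. Likeness was Pearson r of log2 CPM with a prior count of 1, and the 3 highest genes per member that was a DEG were named, except 1 that is not reported here. The 10 genes were all named, with P2ry12, P2ry13 and other purine genes that were DEGs without overlap in both sexes. The members and lists were chosen with earlier results of these data known.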

Additional observations from a re-analysis of the deposited data

Results flagged for a closer look

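In each group of 4 or 5 libraries, the highest and lowest values of the 10 genes were checked with Dixon's criterion for a single library far from the others, over 80 sets of libraries. Chance alone flags about 1 in 20 such sets, and 7 values were flagged. Female WT NX replicate 1 had 5.84 CPM of Nt5e, where the other 3 libraries had 0.0579 to 0.358 CPM, and 2.68 CPM of Adora2a, where the others had 0.695 to 0.776 CPM. Male WT CIH replicate 5 likewise had the highest values of both genes in its group, 1.50 CPM of Nt5e against 0.125 to 0.316 CPM and 1.27 CPM of Adora2a against 0.316 to 0.592 CPM. Female 5XFAD CIH replicate 3 had 268 CPM of P2rx7 against 221 to 228 CPM in the other 4. Male 5XFAD CIH replicate 5 had 21.1 CPM of Adora1 against 10.9 to 13.7 CPM, which lies on the side away from WT. Male WT CIH replicate 3 had 1.03 CPM of Ada against 2.71 to 3.25 CPM, and without it the genotype difference of Ada in CIH-exposed males passed the threshold (log2FC -1.16, FDR = 0.0395). No gene was flagged for a genotype effect that differed between treatments, since none of the 18 interaction tests passed.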

How the results depend on the processing

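No member that passed the FDR changed direction under any alternative: of 317 refits of these 20 differences, 270 stayed past the threshold and 47 did not. The NX comparison of females was the least stable. Its count of 3 members became 1 with no filter, 6 with all 4 groups in one fit, 1 by the DEG rule and 0 to 6 with single libraries left out (6 without 5XFAD NX replicate 4; 0 without WT NX replicate 3, WT NX replicate 4 or 5XFAD NX replicate 5). By the DEG rule the counts were 2 in CIH-exposed females (7 by FDR alone), 1 in NX-exposed males (5), 1 in CIH-exposed males (4) and 0 for CIH in WT males (1). With library size the count was 8 in CIH-exposed males, where 9005 of 14793 genes were called (7248 with TMM), and 3 for CIH in WT males, where 4369 of 14983 were (4279 with TMM). The latter count was 2 with DESeq2 (4698 genes called) and 0 in one fit of all groups. Leaving out single libraries gave 3 to 5 in NX-exposed males (3 without WT NX replicate 2, 3 or 5 or 5XFAD NX replicate 3) and 0 to 3 for CIH in WT males (0 without WT NX replicate 3 or WT CIH replicate 4). The cause of these changes was not tested.

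Deviations of same-numbered libraries from their group means correlated at -0.49 to 0.35, and no comparison had every pair above 0.1, so the numbers were not read as pairs. With the replicate block the count was 0 in NX-exposed females and 3 in NX-exposed males, and it changed no other count by over 1.5 times. Nt5e, Adora2a and Adora2b, with group medians of at most 1.26 CPM, are limited by depth. The male interaction, with 0 genes called by edgeR, had 1017 of 15813 with DESeq2, none of them a member.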
